A study of Homo sapiens with 16 samples.

Results

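Transcript levels were described for 40 nuclear genes that encode subunits of respiratory complexes II, III and IV, cytochrome c and complex V, the ATP synthase. The genes were taken by symbol: 4 of complex II, 10 of complex III with cytochrome c, 11 of complex IV and 15 of complex V. All 40 symbols were found among the 60662 gene rows of the count tables, and all 40 passed the filter on low counts, which kept 14092 genes. The RNA came from Jurkat E6-1, an established human T cell line for which the labels give lymphoma as the cell type and WT as the genotype. Peroxide libraries, 8 in all, were made from cells moved into phosphate-buffered saline with 10 µM hydrogen peroxide and collected at 4 h. Control libraries, also 8, came from untreated cells at 0 h. A group held in saline alone for 4 h was not analysed here, so peroxide, time and the change of medium cannot be told apart. The names of the deposited tables put libraries 1 to 4 of each group in batch 1 and libraries 5 to 8 in batch 2, without saying what a batch was. The labels call the libraries biological replicates without naming separate cultures, so each p-value measures the spread between these libraries.

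Oxidative phosphorylation passes electrons from food molecules to oxygen and stores the energy as a proton gradient across the inner mitochondrial membrane. Complex II feeds electrons from succinate into ubiquinone, complex III passes them on to cytochrome c, complex IV reduces oxygen to water, and complex V lets protons flow back and makes ATP. Complexes III, IV and V mix subunits from nuclear genes with subunits encoded in mitochondrial DNA, while every subunit of complex II is nuclear. Cytochrome c has a further role: once released into the cytosol, it helps to switch on the caspases of apoptosis. Promoters of many of the nuclear genes are known to hold sites for NRF1 (nuclear respiratory factor 1), for the ETS-family factor GABP and for YY1.

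Promoters of 4 members are shown because they hold letters of a transcription factor motif and belong to genes on which the results below turn. The promoter of COX7C was also taken, for complex IV, but held none of the motif letters searched and is not shown. Each sequence is 300 bases from RefSeq (GRCh38.p14), read 5′ to 3′ on the strand of the gene, with 250 bases before the start of the transcript and 50 after it. The 1st is that of CYCS, the cytochrome c gene with the largest fold change (chr7:25125211-25125510, minus strand); capitals mark the NRF1 core GCATGCGC at position -169 from the start. SDHA, the called gene of complex II, follows (chr5:218070-218369, plus strand), with capitals for 4 copies of the NRF1 consensus CGCANGCGC at -165, -116, -67 and -18. For ATP5F1C, the complex V gene with the smallest p (chr10:7787927-7788226, plus strand), capitals mark a stretch at -22 that matches both NRF1 forms on both strands. For ATP5MC1, whose change differed most between batches (chr17:48892537-48892836, plus strand), they mark the cyclic AMP response element TGACGTCA at -57.
CYCS: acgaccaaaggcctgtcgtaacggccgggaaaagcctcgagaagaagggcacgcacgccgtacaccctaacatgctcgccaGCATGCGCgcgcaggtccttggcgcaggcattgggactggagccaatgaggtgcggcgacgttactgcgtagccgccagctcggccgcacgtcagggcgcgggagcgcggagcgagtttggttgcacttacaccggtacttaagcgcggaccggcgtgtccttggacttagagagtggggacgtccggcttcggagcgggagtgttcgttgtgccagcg
SDHA: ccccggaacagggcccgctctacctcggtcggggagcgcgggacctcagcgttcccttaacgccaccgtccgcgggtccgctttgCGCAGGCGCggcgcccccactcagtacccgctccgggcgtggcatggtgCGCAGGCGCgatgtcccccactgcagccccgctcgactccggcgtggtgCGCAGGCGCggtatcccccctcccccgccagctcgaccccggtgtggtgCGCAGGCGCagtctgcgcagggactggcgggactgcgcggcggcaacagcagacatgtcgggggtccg
ATP5F1C: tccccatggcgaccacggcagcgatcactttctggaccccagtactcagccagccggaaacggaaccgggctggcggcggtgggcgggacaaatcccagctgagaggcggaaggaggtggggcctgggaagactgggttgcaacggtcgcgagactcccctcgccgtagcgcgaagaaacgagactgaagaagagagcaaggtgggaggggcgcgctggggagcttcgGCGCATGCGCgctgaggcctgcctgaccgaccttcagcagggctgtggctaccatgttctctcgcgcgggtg
ATP5MC1: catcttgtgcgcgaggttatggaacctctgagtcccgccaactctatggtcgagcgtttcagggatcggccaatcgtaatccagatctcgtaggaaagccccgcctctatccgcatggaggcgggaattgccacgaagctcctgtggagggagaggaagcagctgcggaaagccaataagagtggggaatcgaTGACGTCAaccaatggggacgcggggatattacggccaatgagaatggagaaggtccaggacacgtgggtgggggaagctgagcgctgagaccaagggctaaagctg
RefSeq promoters were at hand for 32 of the 40 members, and both strands were searched. The NRF1 consensus was found in 12 of the 32 (37.5%), against 10.96% of 15843 promoters in the RefSeq table, and the NRF1 core, whose letters overlap it, in 9 (28.1%), against 4.26%. The ETS letters CCGGAAG stood in 14 (43.8%) against 14.2%, the YY1 letters AAGATGGCG in 3 (9.38%) against 2.74%, and TGACGTCA in 3 (9.38%) against 2.59%. The SP1 box GGGGCGGGG was in 3 (9.38%) against 22.4%, and the AP-1 site TGAGTCA in 0 against 3.66%. These are matches of letters in one window, and binding was not measured.

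Reads in genes numbered 7378435 to 10090165 per peroxide library and 5556553 to 15720881 per control library. Reads not aligned uniquely made up 33.3% to 45.8% of counted reads in peroxide libraries and 30.2% to 47.2% in controls; within batch 1 they were 33.3% to 39.8% in peroxide libraries and 30.2% to 47.2% in controls, and within batch 2 35.7% to 45.8% in peroxide libraries and 31.8% to 33.7% in controls. Marker sums are CPM, counts scaled so that the reads in genes of each library have the same total, without further scaling. The 12 T cell markers summed to 3454 to 3976 CPM in peroxide libraries and 3729 to 4295 CPM in controls, with CD3D present in all 16. By the test described below, 5 of the 12 were called lower and 0 higher, against 24.3% and 24.1% of all genes. The 5 B cell markers summed to 29.3 to 57.3 CPM in peroxide libraries and 29.3 to 54.2 CPM in controls, nearly all from CD79A, with MS4A1 at 0 in all peroxide libraries. The 5 myeloid markers summed to 4.12 to 12.5 CPM in peroxide libraries, mostly from CD14 and ITGAM, and 0.131 to 1.01 CPM in controls. The 5 erythroid markers summed to 0.213 to 0.813 CPM in peroxide libraries and 0 to 0.120 CPM in controls, with HBB at 0 throughout. The 6 epithelial and fibroblast markers summed to 250.7 to 342 CPM in peroxide libraries and 147 to 213 CPM in controls, nearly all from VIM, with EPCAM and COL1A2 at 0. Whether these differences play a part in the values below was not tested. In bulk RNA, fewer cells of a type and less RNA per cell cannot be told apart.

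After peroxide, 16 of the 40 subunit genes were called higher and 0 lower, and 24 were not called, with edgeR's quasi-likelihood test and a Benjamini-Hochberg adjusted p under 0.05 over all 14092 genes. The shares called among all genes were 24.1% higher and 24.3% lower, 48.3% in all. Without adjustment, 1 member was lower at p under 0.05, and DESeq2 and limma-voom also called 0 lower. Most rises were small. The median log2 fold change of the 40 was 0.14, against -0.01 over all genes tested. Of the 40 estimates 36 were positive, against 6795 of the 14092 genes tested. CYCS and UQCRB were the 2 members called with a log2 fold change of 0.5 or more, a size that 12.6% of all genes reached among higher calls, and 0 members were called at -0.5 or less, against 7.06%. The other 14 called genes lay between 0.16 and 0.38, and the 24 genes not called between -0.18 and 0.18. Complex IV had 7 of 11 genes higher and a median of 0.19, complex III with cytochrome c 5 of 10 and 0.18, complex II 1 of 4 and 0.12, and complex V 3 of 15 and 0.06. Scaled by library totals alone, 11 members were called higher and 2, UQCRC1 and UQCR11, lower, with a median of 0.08. Calls over all genes then split 39.2% higher, against 49.8% with TMM factors.

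**Figure D1:**
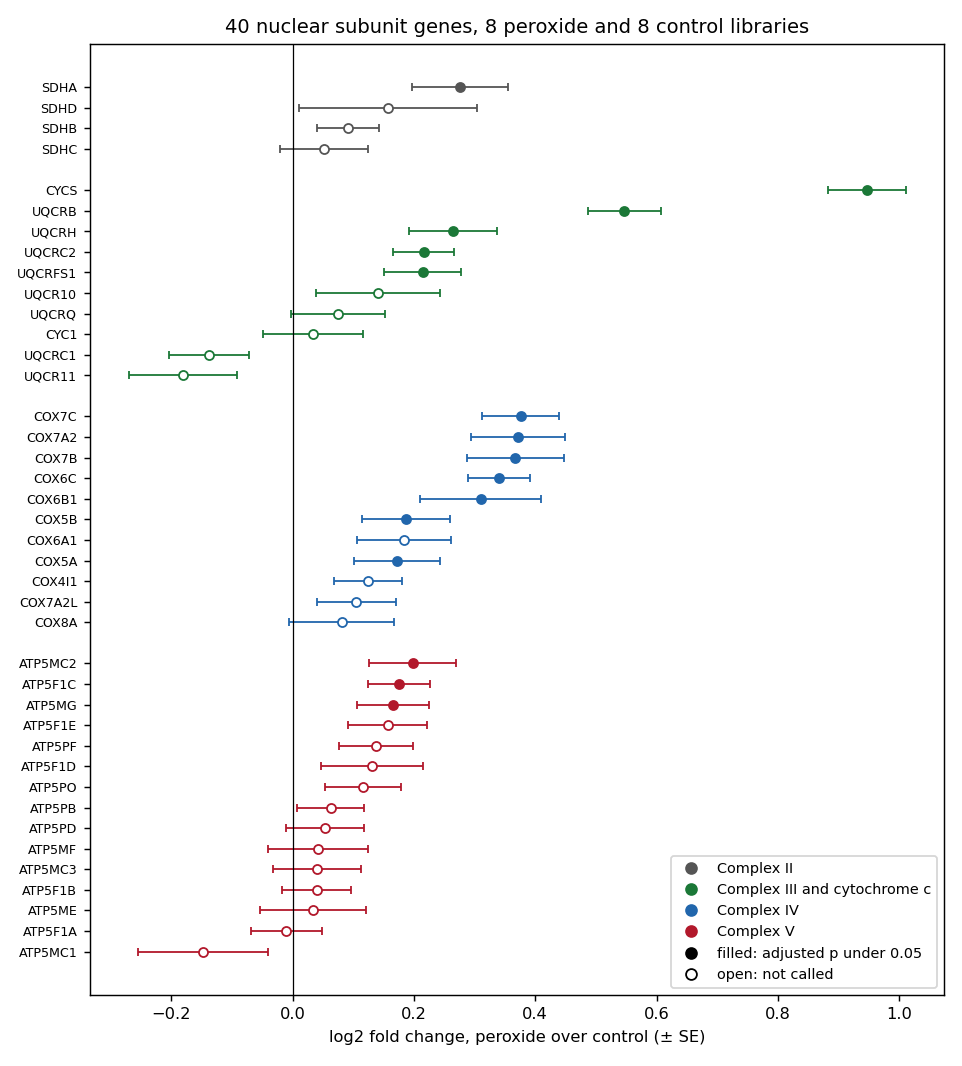
Log2 fold change (peroxide over control) of each of the 40 genes with its SE, by complex, from 8 peroxide and 8 control libraries with batch as a term; filled points had an adjusted p under 0.05. CYCS at 0.95 and UQCRB at 0.55 stand apart from the other 38 genes, which lie between -0.18 and 0.38.

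Among the members, batch was large beside treatment. The estimate of batch 2 over batch 1 was larger in size than that of peroxide over control in 33 of the 40 genes. The same share was not worked out over all genes, so whether this count is particular to the members is not known. In batch 2, 28 members were lower and 3 higher, against 25.9% and 25.3% of all genes, with a median of -0.35. Every fold change given without a batch is therefore from the fit with batch as a term, and for the members described most closely values within each batch are given beside it. With batch left out of the fit, 4 members (CYCS, UQCRB, COX6C and COX7C) kept their calls.

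Succinate dehydrogenase had 1 of its 4 genes called. Levels from here on are CPM with TMM scaling (trimmed mean of M-values), and 3 values in a row are the lowest, median and highest of 8 libraries. SDHA (ENSG00000073578.17), the flavoprotein that oxidises succinate, had 15.004, 21.7 and 23.9 CPM in peroxide libraries, against 13.4, 17.0 and 21.8 CPM in controls. The 4 peroxide libraries of batch 1, at 22.4 to 23.9 CPM, lay above the 4 controls of that batch, at 18.0 to 21.8 CPM, but in batch 2 the groups overlapped. The log2 fold change was 0.28 ± 0.08 (SE; adjusted p = 0.00655, edgeR, Benjamini-Hochberg). It was 0.26 ± 0.11 in batch 1 alone and 0.29 ± 0.12 in batch 2 alone, and neither passed (edgeR, Benjamini-Hochberg adjusted p = 0.0733 and 0.0822).

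SDHA has transcribed pseudogenes, and it is the one member for which their rows held more reads than the gene. Over all libraries SDHAP1, SDHAP3 and SDHAP4 together held 3411 reads in peroxide libraries and 4863 in controls, against 1373 and 1369 reads for SDHA itself. Their log2 fold changes ran the other way: -0.33 ± 0.10 for SDHAP1 (adjusted p = 0.0113), -0.23 ± 0.09 for SDHAP4 (0.0325) and -0.21 ± 0.09 for SDHAP3, which did not pass (0.0662; edgeR, Benjamini-Hochberg). Reads that align to more than 1 copy stand in the row of reads not aligned uniquely, so the level of SDHA is uncertain.

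The other 3 genes of complex II did not pass. SDHB (ENSG00000117118.10), the iron-sulfur subunit, stood at 97.7, 106 and 128 CPM in peroxide libraries and at 90.6, 101 and 119.7 CPM in controls, a log2 difference of 0.09 ± 0.05. SDHC (ENSG00000143252.14), a membrane anchor, stood at 47.2, 53.6 and 67.9 CPM in peroxide libraries and at 41.3, 53.6 and 68.1 CPM in controls, a difference of 0.05 ± 0.07. The groups overlapped in both. SDHD, the second anchor, differed by 0.16 ± 0.15, with a low level of 11.1 CPM in peroxide library 2. Control library 2 was also the lowest of the controls, at 14.3 CPM. SDHD was called without peroxide library 2 (0.26 ± 0.10), a fit that kept control library 2. SDHB and SDHD were called higher in batch 2 alone, at 0.16 ± 0.06 and 0.31 ± 0.09 (edgeR, Benjamini-Hochberg adjusted p = 0.0466 and 0.0172).

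Cytochrome c had the largest change of all 40 genes. CYCS (ENSG00000172115.9), the mobile carrier between complexes III and IV, had 169, 201 and 280.1 CPM in peroxide libraries, against 80.9, 109.6 and 146 CPM in controls. It was the 1 member in which every peroxide library lay above every control, a separation that 6.76% of all genes showed. The mean was 217 ± 49.3 CPM after peroxide and 113 ± 27.0 CPM in controls (SD, n = 8 each). The log2 fold change was 0.95 ± 0.06 (adjusted p = 1.24e-10, edgeR, Benjamini-Hochberg), a rise of 92.7%, with 0.92 ± 0.10 in batch 1 alone and 0.98 ± 0.08 in batch 2 alone. CYCS has 42 pseudogene rows, of which 19 had reads. Together they held 0.854% as many reads as CYCS in peroxide libraries and 1.71% in controls.

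Cytochrome c1, the haem subunit of complex III that hands electrons to cytochrome c, was not called. Its gene CYC1 (ENSG00000179091.5) had 111, 162 and 182 CPM in peroxide libraries, against 133, 150.3 and 168 CPM in controls, a log2 difference of 0.03 ± 0.08. Peroxide libraries of batch 1 lay at 111 to 154 CPM and controls at 140.0 to 168 CPM, which overlapped; in batch 2 all 4 peroxide libraries, at 170.5 to 182 CPM, lay above all 4 controls, at 133 to 154 CPM.

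Among the subunits of complex III itself, UQCRB rose most. UQCRB (ENSG00000156467.9), an accessory subunit that binds ubiquinone, had 99.8, 136 and 174 CPM in peroxide libraries and 70.3, 90.3 and 120.1 CPM in controls. Its groups overlapped over all libraries because batch 2 was lower in both, but within each batch every peroxide library was above every control. In batch 1 the peroxide libraries held 163 to 174 CPM and the controls 94.7 to 120.1 CPM, and in batch 2 the peroxide libraries held 99.8 to 109.8 CPM and the controls 70.3 to 86.0 CPM. The log2 fold change was 0.55 ± 0.06 (adjusted p = 1.75e-07, edgeR, Benjamini-Hochberg), or 46.1% higher, with 0.63 ± 0.09 in batch 1 alone and 0.46 ± 0.07 in batch 2 alone.

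Of the 2 core proteins, large subunits that face the matrix, 1 was called. UQCRC2 (ENSG00000140740.11) had 225, 269 and 339.6 CPM in peroxide libraries and 200.0, 231 and 279 CPM in controls and rose by 0.22 ± 0.05 (adjusted p = 0.00137, edgeR, Benjamini-Hochberg). Peroxide libraries of batch 1 lay at 287 to 339.6 CPM and controls at 249 to 279 CPM, and those of batch 2 at 225 to 252 CPM with controls at 200.0 to 213 CPM, with no overlap in either. UQCRC1 (ENSG00000010256.11) was not called, at -0.14 ± 0.07 (adjusted p = 0.0883, edgeR, Benjamini-Hochberg). In batch 1 its peroxide libraries, at 185 to 238 CPM, lay below its controls, at 252 to 261 CPM, while in batch 2 the 242 to 262 CPM of peroxide libraries overlapped the 233 to 253 CPM of controls. A test of UQCRC2 against UQCRC1 was not run.

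UQCRH, the hinge protein that helps cytochrome c1 and cytochrome c to meet, rose by 0.26 ± 0.07, and UQCRFS1, the Rieske iron-sulfur protein, by 0.21 ± 0.06 (adjusted p = 0.00462 and 0.00818, edgeR, Benjamini-Hochberg). Both lost their calls in batch 1 alone, at 0.15 ± 0.10 and 0.12 ± 0.09. The small subunits UQCR10, UQCRQ and UQCR11 differed by 0.14 ± 0.10, 0.08 ± 0.08 and -0.18 ± 0.09 and were not called. UQCRFS1 had the highest pseudogene share apart from SDHA, 4.75% of its reads in peroxide libraries and 3.76% in controls.

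In the fit of both batches, complex IV had the highest share of called genes. In batch 1 alone 2 of its 11 genes were higher (18.2%), against 3 of 10 in complex III with cytochrome c and 20.4% of all genes. In batch 2 alone 10 of its genes were higher (90.9%), against 7 of 10 and 19.4%. COX7A2, COX7B, COX6B1, COX5B and COX5A were not called in batch 1 alone. The 3 core subunits of complex IV are mitochondrially encoded and are given further on. The 11 nuclear genes here encode the small subunits around them, with COX7A2L. COX6C (ENSG00000164919.11) had 127, 155 and 185 CPM in peroxide libraries and 100.3, 123 and 147 CPM in controls, and rose by 0.34 ± 0.05 (adjusted p = 1.32e-05, edgeR, Benjamini-Hochberg). Within batch 1 its peroxide libraries held 164 to 185 CPM and its controls 129.9 to 147 CPM, and within batch 2 the peroxide range was 127 to 145 CPM and the control range 100.3 to 115 CPM. Neither batch showed any overlap.

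COX7C (ENSG00000127184.13) showed the same separation in each batch. Its levels were 191, 248 and 315 CPM in peroxide libraries and 149, 191 and 240.4 CPM in controls, a log2 fold change of 0.38 ± 0.06 (adjusted p = 4.27e-05, edgeR, Benjamini-Hochberg). It was 0.28 ± 0.08 in batch 1 alone and 0.47 ± 0.08 in batch 2 alone. CYCS, UQCRB, UQCRC2, COX6C and COX7C were the 5 members (12.5%) with every peroxide library above every control in both batches, against 10.5% of all genes, and 0 members were below in both, against 8.74%.

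COX7A2 and COX7A2L encode related proteins: the first is a subunit of complex IV, and the second, also called SCAF1, tethers complexes III and IV into a supercomplex. COX7A2 (ENSG00000112695.11) had 126, 149 and 212 CPM in peroxide libraries and 92.0, 118 and 194 CPM in controls and rose by 0.37 ± 0.08 (adjusted p = 0.000463, edgeR, Benjamini-Hochberg). In batch 2 its peroxide libraries, at 126 to 145 CPM, were above its controls, at 92.0 to 99.7 CPM; in batch 1 the groups overlapped. COX7A2L (ENSG00000115944.15) had 49.5, 63.5 and 80.3 CPM in peroxide libraries and 45.5, 59.8 and 76.8 CPM in controls, a difference of 0.11 ± 0.07 that did not pass. It was also 1 of the 3 members higher in batch 2, by 0.45, while COX7A2 was lower there, by -0.58. A test of the 2 genes against each other was not run.

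COX7B and COX6B1 rose by 0.37 ± 0.08 and 0.31 ± 0.10, and they had the widest batch differences of the 40 genes, -1.18 and -1.05 (batch 2 over batch 1). COX7B held 55.3 to 140.3 CPM in peroxide libraries and 37.8 to 128 CPM in controls, and most of that range lay between batches. COX5B and COX5A passed narrowly, at 0.19 ± 0.07 and 0.17 ± 0.07 (adjusted p = 0.0394 and 0.0482, edgeR, Benjamini-Hochberg). Leaving out a single library ended the call of COX5B for 12 of the 16 libraries and that of COX5A for 11, with adjusted p up to 0.115 and 0.117 (edgeR, Benjamini-Hochberg). COX6A1 and COX4I1 were just outside the threshold, at 0.18 ± 0.08 and 0.12 ± 0.06 (adjusted p = 0.0550 and 0.0716, edgeR, Benjamini-Hochberg). COX8A (ENSG00000176340.4) had 74.8, 112 and 145 CPM in peroxide libraries and 84.3, 106 and 113 CPM in controls, a difference of 0.08 ± 0.09. Its peroxide libraries of batch 2, at 116 to 145 CPM, were above all controls, while those of batch 1, at 74.8 to 108 CPM, were not.

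**Figure D2:**
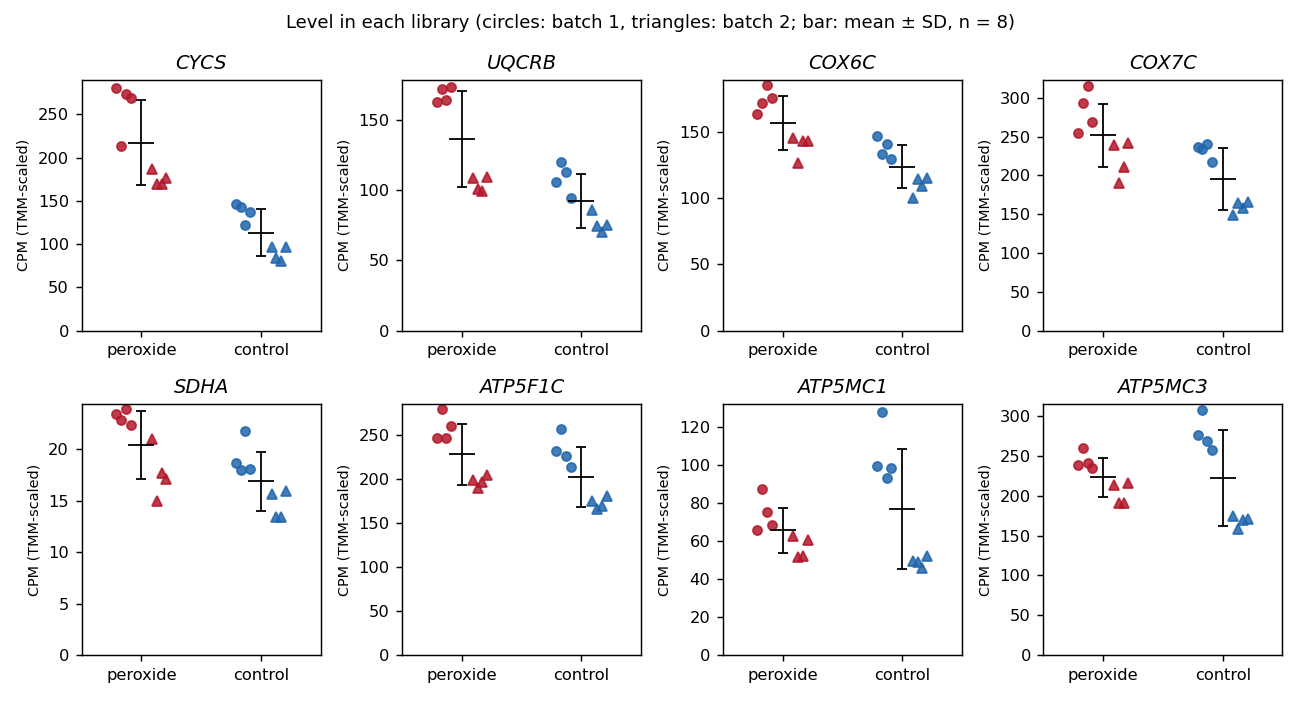
CPM with TMM scaling of 8 genes in each library, peroxide libraries left and controls right, circles for batch 1 and triangles for batch 2, with mean ± SD over 8 libraries. CYCS is the gene in which all peroxide libraries (169 CPM or more) lie above all controls (146 CPM or less); in UQCRB, COX6C and COX7C they do so within each batch; ATP5MC1 lies below its controls in batch 1 and not in batch 2.

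In ATP synthase 3 of 15 genes were higher, a share near the 24.1% of all genes. In the catalytic F1 head, ATP5F1C (ENSG00000165629.20), the gamma subunit of the rotating shaft, had 190.3, 225 and 279 CPM in peroxide libraries and 166, 197 and 257 CPM in controls. It rose by 0.18 ± 0.05 (adjusted p = 0.00664, edgeR, Benjamini-Hochberg), with 0.15 ± 0.08 in batch 1 alone and 0.20 ± 0.06 in batch 2 alone. In batch 2 its peroxide libraries, at 190.3 to 205 CPM, were above its controls, at 166 to 180.3 CPM, and in batch 1 the groups overlapped. The alpha and beta subunits, which form the catalytic ring, did not pass: ATP5F1A differed by -0.01 ± 0.06 and ATP5F1B by 0.04 ± 0.06. The delta and epsilon subunits of the shaft, ATP5F1D and ATP5F1E, differed by 0.13 ± 0.08 and 0.16 ± 0.07 (adjusted p = 0.205 and 0.0519, edgeR, Benjamini-Hochberg).

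None of the 4 genes of the outer stalk, which keeps the head from turning, was called. ATP5PF (coupling factor 6) differed by 0.14 ± 0.06, ATP5PO (the oligomycin sensitivity protein) by 0.12 ± 0.06, ATP5PB (subunit b) by 0.06 ± 0.05 and ATP5PD (subunit d) by 0.05 ± 0.06. Of the small membrane subunits that help ATP synthase to form dimers, ATP5MG (subunit g; ENSG00000167283.8) rose by 0.16 ± 0.06 (adjusted p = 0.0262, edgeR, Benjamini-Hochberg). It had 49.2, 58.0 and 72.8 CPM in peroxide libraries and 41.6, 51.3 and 72.8 CPM in controls, and its groups overlapped; its call was lost in each batch alone and when any 1 of 4 libraries (controls 1, 3 and 6, peroxide 4) was left out, with an adjusted p of 0.0554 to 0.0789 (edgeR, Benjamini-Hochberg). ATP5MF and ATP5ME, subunits f and e, differed by 0.04 ± 0.08 and 0.03 ± 0.09. Exons of ATP5MF are shared with the readthrough gene ATP5MF-PTCD1 on the same strand, so its level is uncertain.

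Subunit c, which forms the rotating ring in the membrane, is encoded by 3 genes that give the same mature protein, and 1 of them was called. ATP5MC2 (ENSG00000135390.20) had 246, 287 and 358 CPM in peroxide libraries and 228, 239.5 and 295 CPM in controls and rose by 0.20 ± 0.07 (adjusted p = 0.0274, edgeR, Benjamini-Hochberg). The call was lost in batch 1 alone, at 0.09 ± 0.11, and kept in batch 2 alone, at 0.31 ± 0.07 (edgeR, Benjamini-Hochberg adjusted p = 0.574 and 0.00224). It was also lost when any 1 of 7 libraries (controls 4, 5, 7 and 8, peroxide 2, 5 and 8) was left out. The adjusted p was then 0.0524 to 0.0783 (edgeR, Benjamini-Hochberg). ATP5MC3 (ENSG00000154518.9) had 191, 226 and 260.2 CPM in peroxide libraries and 158, 216 and 308 CPM in controls, a difference of 0.04 ± 0.07. ATP5MC1 (ENSG00000159199.14) had 51.6, 64.4 and 87.6 CPM in peroxide libraries and 45.7, 72.9 and 128 CPM in controls, a difference of -0.15 ± 0.11. Neither passed, and in both the peroxide libraries lay inside the range of the controls. The 3 genes were not tested against each other.

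More of the subunit genes were called in batch 2. In batch 1 alone, 5 of the 40 (12.5%) were higher and 3 lower, with a median log2 fold change of 0.04, while 20.4% and 17.2% of the 14017 genes tested there were higher and lower. In batch 2 alone, 26 (65.0%) were higher and 0 lower, with a median of 0.24, while 19.4% and 19.1% of 14444 genes were. The 5 members called higher in batch 1 were CYCS, UQCRB, UQCRC2, COX6C and COX7C, and all 5 were higher in batch 2 as well. The 3 lower in batch 1 were UQCRC1 at -0.32 ± 0.09, UQCR11 at -0.34 ± 0.12 and ATP5MC1 at -0.50 ± 0.12 (edgeR, Benjamini-Hochberg adjusted p = 0.00883, 0.0404 and 0.00377). The interaction of batch and group, which tests this difference gene by gene, had a median of 0.22 over the 40 genes and -0.01 over all genes. It was positive (a more positive log2 fold change in batch 2, whatever its size) in 38 of the 40 estimates, a count not worked out over all genes.

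Of the 40 interactions, 4 (10.0%) passed, all positive. Over all genes 4.88% passed, 1.87% with a positive and 3.02% with a negative estimate. ATP5MC1 had the largest interaction, 0.71 ± 0.15 on the log2 scale (adjusted p = 0.00994, edgeR, Benjamini-Hochberg). Peroxide libraries of batch 1 lay at 65.8 to 87.6 CPM and controls at 93.5 to 128 CPM; peroxide libraries of batch 2 lay at 51.6 to 62.9 CPM and controls at 45.7 to 52.3 CPM. The groups are thus apart in batch 1, with peroxide lower, and overlap by a narrow margin in batch 2, where the peroxide range is higher. ATP5MC3 had an interaction of 0.46 ± 0.10, with 235 to 260.2 CPM in peroxide libraries against 258 to 308 CPM in controls in batch 1, and 191 to 216 CPM in peroxide libraries against 158 to 175 CPM in controls in batch 2. CYC1 and UQCRC1 had interactions of 0.49 ± 0.12 and 0.37 ± 0.10 (ATP5MC3, CYC1 and UQCRC1: edgeR, Benjamini-Hochberg adjusted p = 0.0135, 0.0248 and 0.0419). The number of members with a called interaction was 2 without control 5, peroxide 4 or peroxide 5, 8 without peroxide 2 and 8 with DESeq2. It was 1 without both control 1 and peroxide 5, which had the highest shares of reads without a unique alignment; that pair was picked after seeing the data.

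**Figure D3:**
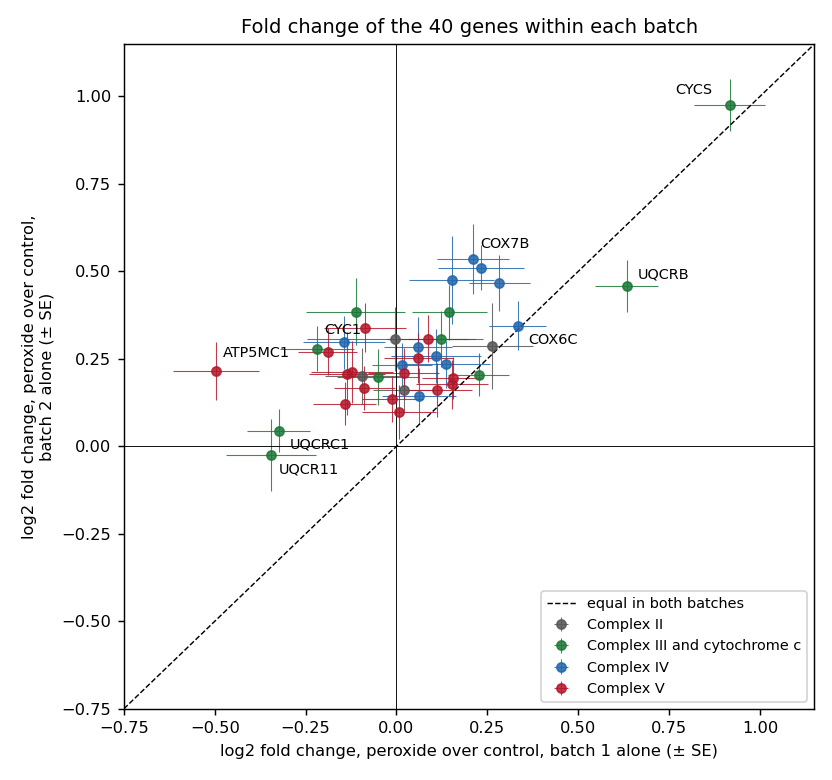
Log2 fold change (peroxide over control) of the 40 genes in batch 2 alone (vertical) against batch 1 alone (horizontal), each from 4 peroxide and 4 control libraries with SE bars, coloured by complex. Most points lie above the dashed line of equal change, with medians of 0.24 in batch 2 and 0.04 in batch 1; UQCRB lies below the line and ATP5MC1 farthest from it on the left.

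Levels were also summed over the genes of each complex, as a description with no test. The 11 nuclear genes of complex IV summed to 1580.0 ± 200 CPM in peroxide libraries and 1348 ± 238 CPM in controls (SD, n = 8 each). In batch 1 the sums were 1730.0 ± 154 CPM in peroxide libraries and 1563 ± 90.1 CPM in controls, and in batch 2 1430.0 ± 96.5 CPM in peroxide libraries and 1133 ± 24.4 CPM in controls (SD, n = 4 each). Complex III with cytochrome c summed to 1378 ± 121 CPM in peroxide libraries and 1173 ± 148 CPM in controls, complex II to 212 ± 13.9 CPM in peroxide libraries and 198 ± 24.5 CPM in controls, and complex V to 3185 ± 257 CPM in peroxide libraries and 3068 ± 472 CPM in controls. The complex V sum was 3357 ± 256 CPM in peroxide libraries and 3493 ± 189 CPM in controls within batch 1, and 3012 ± 94.2 CPM in peroxide libraries and 2643 ± 42.8 CPM in controls within batch 2. These sums weigh abundant genes most, such as ATP5F1B and ATP5F1A.

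The mitochondrially encoded partners went the other way for complexes III and IV. MT-CO1, the catalytic subunit of complex IV, had 498, 841 and 1148 CPM in peroxide libraries and 2616, 3238 and 3582 CPM in controls, and fell by 1.95 on the log2 scale. MT-CO2, which takes electrons from cytochrome c, fell by 0.63 and MT-CO3 by 0.51, and in these 3 genes every peroxide library lay below every control, against 4.49% of all genes. MT-CYB, the cytochrome b of complex III, fell by 0.30, with overlapping groups and no call in batch 2 alone (-0.27 ± 0.12). The 2 complex V partners did not pass: MT-ATP6, which forms the proton channel, differed by -0.05 ± 0.10 and MT-ATP8 by 0.04 ± 0.12. Adjusted p-values of the 4 falls were at most 0.00693 (edgeR, Benjamini-Hochberg).

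For complex IV the sums of the 11 nuclear genes and the 3 mitochondrial genes therefore moved in opposite directions. Their ratio was 0.328 ± 0.0663 in peroxide libraries and 0.147 ± 0.0323 in controls (SD, n = 8 each), and the lowest peroxide value, 0.259, was above the highest control value, 0.191. In batch 1 the ratio was 0.371 in peroxide libraries and 0.175 in controls, and in batch 2 0.285 in peroxide libraries and 0.119 in controls. The mitochondrial sum was 4917 ± 731 CPM in peroxide libraries and 9287 ± 755 CPM in controls. For complex V the ratio was 1.25 ± 0.216 in peroxide libraries and 1.17 ± 0.178 in controls, and the groups overlapped. Exons of MT-ATP6 overlap those of MT-ATP8 and MT-CO3 on the same strand. Nuclear copies of mitochondrial genes can also draw reads away from unique alignment, so these levels are uncertain.

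**Figure D4:**
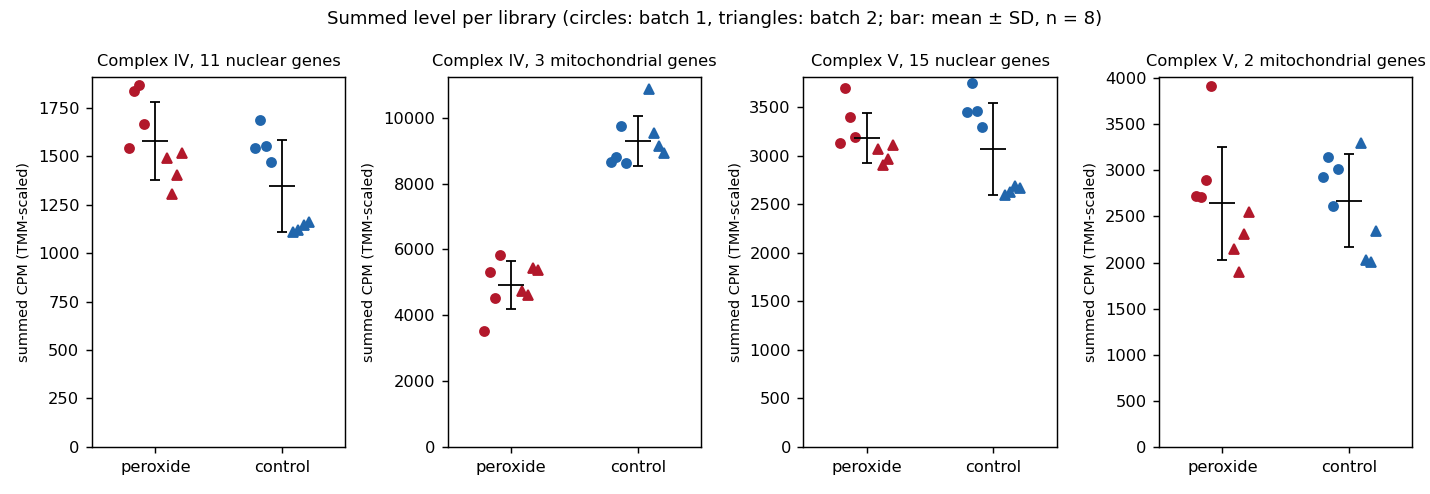
Summed CPM per library for the nuclear and the mitochondrially encoded genes of complexes IV and V, peroxide libraries left and controls right, circles for batch 1 and triangles for batch 2, with mean ± SD over 8 libraries. The mitochondrial sum of complex IV is 4917 CPM in peroxide libraries and 9287 CPM in controls, with no overlap; the other 3 sums overlap between groups.

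Further subunits and isoforms outside the 40 were looked at as a list. Of 12 genes listed, 5 were tested and 4 were higher, against 24.1% of all genes. These 4 were UQCRHL, a near-identical copy of UQCRH, at 1.20 ± 0.21, ATP5MJ at 0.30 ± 0.07, NDUFA4, a subunit of complex IV named for complex I, at 0.31 ± 0.09, and ATP5MK at 0.23 ± 0.08. UQCRHL was scarce, at 1.32 to 3.26 CPM in peroxide libraries and 0.375 to 1.22 CPM in controls, and reads that align to both UQCRH and UQCRHL are not aligned uniquely, so both levels are uncertain. ATP5IF1, the inhibitor that stops ATP synthase from running backwards, differed by 0.13 ± 0.07 and was not called. In batch 1 alone ATP5MJ, NDUFA4 and ATP5MK were not called, at 0.25 ± 0.10, 0.16 ± 0.13 and 0.11 ± 0.10. Exons of ATP5MK overlap those of MIR1307 on the same strand and TAF5 on the opposite strand, so its level is uncertain. The tissue-specific isoforms COX4I2, COX6A2, COX6B2, COX7A1, COX7B2 and COX8C were below the filter, each at 0.865 CPM or less in every library.

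Assembly factors showed no common direction, and neither did all genes tested, of which 24.1% were higher and 24.3% lower. Of 4 factors for complex II, 0 were higher and 1, SDHAF1, was lower at -0.31 ± 0.11. All 4 had negative estimates. Of 8 for complex III, UQCC6 was higher at 1.44 ± 0.13 and LYRM7, which loads the Rieske protein, lower at -0.32 ± 0.09. Of 26 for complex IV, 5 were higher and 3 lower, led by COX20 at 1.00 ± 0.14, COA7 at -0.50 ± 0.10, COA5 at -0.41 ± 0.09 and the copper chaperone COX17 at 0.33 ± 0.08. Of 6 for complex V, TMEM242 was higher at 0.41 ± 0.09 and ATPAF1 lower at -0.16 ± 0.06. SDHAF1, TMEM242 and ATPAF1 were called in batch 1 alone, at -0.65 ± 0.15, 0.74 ± 0.10 and -0.29 ± 0.08, and not in batch 2 alone, at -0.02 ± 0.11, 0.10 ± 0.09 and -0.04 ± 0.08. The interaction passed for SDHAF1 at 0.63 ± 0.18 and TMEM242 at -0.64 ± 0.12 (adjusted p = 0.0492 and 0.00608, edgeR, Benjamini-Hochberg) and not for ATPAF1. LYRM7 and COX17 were not called in batch 1 alone, at -0.29 ± 0.14 and 0.30 ± 0.12. Median log2 fold changes were -0.26 for complex II factors, 0.06 for complex III, 0.03 for complex IV and 0.08 for complex V. Exons of UQCC6 overlap those of HSP90B1 on the opposite strand, exons of COX20 those of HNRNPU and exons of ATPAF1 those of TEX38. Exons of COX17 overlap those of POPDC2 on the same strand. The sources used here do not state counting mode or strand, so the reads of these pairs cannot be told apart. Leaving out any 1 of 4 libraries (controls 1 and 4, peroxide 1 and 2) ended the call of SDHAF1, with edgeR's Benjamini-Hochberg adjusted p between 0.0506 and 0.0556.

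Genes that make or use cytochrome c did not share a direction. HCCS, which attaches haem to cytochrome c, fell by 0.28, in the direction opposite to CYCS. APAF1, the scaffold that cytochrome c activates in the cytosol, had 22.3, 28.1 and 37.6 CPM in peroxide libraries and 35.1, 49.3 and 55.0 CPM in controls and fell by 0.71. The groups overlapped. DIABLO, released from mitochondria along with cytochrome c, rose by 0.52 ± 0.13, and CASP9 differed by -0.11 ± 0.10 and was not called. HCCS and DIABLO were called in batch 1 alone, at -0.45 ± 0.12 and 0.70 ± 0.19, and not in batch 2 alone, at -0.11 ± 0.10 and 0.33 ± 0.18; neither interaction passed. Adjusted p-values of the calls of HCCS, APAF1 and DIABLO were at most 0.00899 (edgeR, Benjamini-Hochberg). Exons of APAF1, DIABLO and CASP9 overlap those of ANKS1B, B3GNT4 and CELA2B on the opposite strand, so their levels are uncertain.

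Regulators of respiratory genes were also split, with 4 of 10 tested genes higher and 2 lower, against 24.1% and 24.3% of all genes. GABPB1 and GABPA, 2 of the GABP subunits, rose by 0.60 ± 0.07 and 0.25 ± 0.10, YY1 by 0.26 ± 0.07 and the coactivator PPRC1 by 0.35 ± 0.07. PPARGC1B, a related coactivator, fell by 0.51 and SP1 by 0.39. YY1 was not called in batch 1 alone (0.20 ± 0.10), nor GABPA in either batch alone. NRF1 differed by 0.04 ± 0.07 and was not called. GABPB2, another GABP subunit, was also not called, with log2 fold changes of -0.13 to 0.12 over the 27 alternatives. Exons of GABPA overlap those of the member ATP5PF on the opposite strand, and exons of GABPB1 those of its antisense gene. The GABPA call was lost without any 1 of 10 of the 16 libraries (edgeR, Benjamini-Hochberg adjusted p up to 0.136). Of 6 tested carriers and porins, which move ATP, ADP and phosphate across the mitochondrial membranes, 3 were higher and 0 lower, against the same shares. The 3 were the ADP/ATP carriers SLC25A4 at 0.47 ± 0.06 and SLC25A5 at 0.27 ± 0.06 and the phosphate carrier SLC25A3 at 0.23 ± 0.08. SLC25A5 was not called in batch 1 alone (0.16 ± 0.09). SLC25A3 was not called in batch 2 alone (0.03 ± 0.10) or without control 4. Exons of YY1 and SLC25A5 also overlap genes on the opposite strand, and those of YY1 and SLC25A3 overlap MIR6764 and SNORA53 on the same strand.

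**Figure D5:**
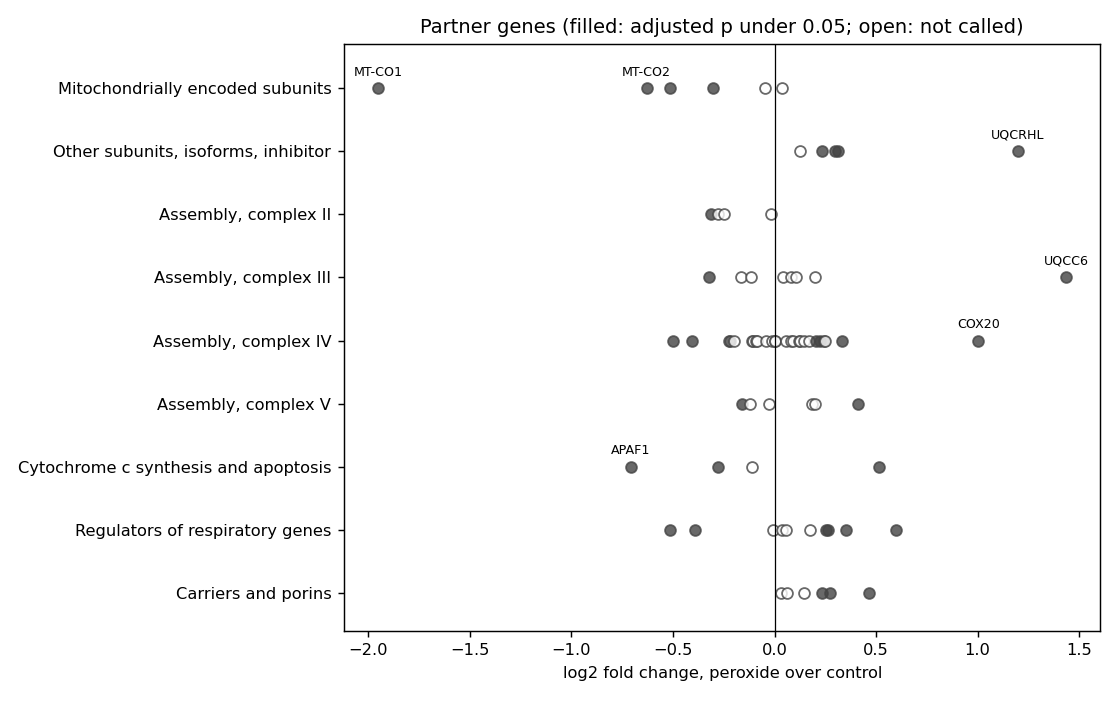
Log2 fold change (peroxide over control) of tested partner genes by list, 1 point per gene reported; filled points had an adjusted p under 0.05. The mitochondrially encoded subunits lie at or below 0.04, down to -1.95 for MT-CO1. The assembly factors of complexes III, IV and V spread on both sides of 0, and those of complex II lie below it.

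Changes were also set beside the promoter letters. Of the 14 members with the ETS letters, 4 were called and the median log2 fold change was 0.13; of the 18 without them, 10 were called and the median was 0.17. Members with the NRF1 consensus had a median of 0.15 and 4 of 12 calls, against 0.16 and 10 of 20 for those without it. With the NRF1 core the median was 0.18 and 4 of 9 were called, against 0.14 and 10 of 23 without it. These are descriptions, with no test. Of the 40 members, 31 had pseudogene rows (173 in all), and apart from SDHA these rows held at most 4.75% as many reads as the gene in peroxide libraries and 3.76% in controls. Exons of 21 members overlap another annotated gene, 15 on the opposite strand and 10 on the same strand. Of the 16 called genes, 5 are among the 21: UQCRB and UQCRFS1 (opposite strand), COX7C and ATP5MC2 (same strand) and ATP5MG (both). The sources used here do not state counting mode or strand, so the levels of these 5 are uncertain.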

How the data were processed

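RNA extracted with TRIzol from 16 Jurkat libraries was prepared with an Illumina TruSeq kit, per the labels' protocols. The deposited tables hold whole-number read counts per gene, made with STAR 2.7.1a and HTSeq 0.6.1 on hg19, per the submitters' processing notes; the sources used here do not state counting mode or strand. Of 60662 gene identifiers, 99.5% carried a symbol; 68.03% matched GENCODE 29 to the version, so no coordinates of the counted genes are given, and overlaps of exons come from that annotation. The 5 rows naming no gene held 48.3% to 56.5% of reads in peroxide libraries and 43.5% to 57.6% in controls, and were left out.

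Counts were tested with edgeR 4.0.16 (R 4.3.3): filterByExpr on the groups, TMM factors, quasi-likelihood tests of group with batch in the model, and Benjamini-Hochberg adjustment over all 14092 genes, called at an adjusted p under 0.05. A model with the product of batch and group gave the interaction, and each batch was also fitted alone. No adjustment was made over the 40 members. Alternatives used DESeq2 1.42.0, limma-voom (limma 3.58.1), other scalings and filters, no batch term, the replicate number as a block, and each library left out in turn. Depth (reads in genes, given with the results) limits precision most for scarce genes such as SDHA.

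Values per library were given for the 3 members of each complex with the smallest p (2 for complex II), members with a log2 fold change of 0.5 or more, the member with the smallest interaction p per complex, the subunit c genes and the pair COX7A2 and COX7A2L; of each other list, up to 4 genes with the smallest p were named. UQCRC1, SDHD, COX7B, YY1, GABPA, GABPB2, NRF1, CASP9, ATP5IF1 and the SDHA pseudogenes were named after their values were seen. Members and lists were chosen with earlier results of these data known. Promoters came from RefSeq (GRCh38.p14), and the motif letters were also settled with the results known. Some genes of the lists are not reported here.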

Additional observations from a re-analysis of the deposited data

Results flagged for a closer look

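Within a group of 8 libraries, 1 library stood far from the others for 3 members: SDHD was at 11.1 CPM in peroxide library 2, with the other peroxide libraries at 24.4 to 31.9 CPM; ATP5F1A was at 730 CPM in peroxide library 2, with the others at 559 to 634.5 CPM; and COX8A was at 84.3 CPM in control library 2, with the other controls at 102 to 113 CPM. These were 3 of 80 groups tested, and chance flags about 1 in 20.

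The fold change differed between batches for 4 members by the test of the interaction (edgeR, Benjamini-Hochberg). Batch 2 minus batch 1, on the log2 scale, was 0.71 for ATP5MC1, 0.46 for ATP5MC3, 0.49 for CYC1 and 0.37 for UQCRC1 (adjusted p = 0.00994, 0.0135, 0.0248 and 0.0419). Reads not aligned uniquely averaged 40.8% in peroxide libraries and 32.8% in controls in batch 2, and 35.9% in peroxide libraries and 35.3% in controls in batch 1; their part in these differences was not tested.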

How the results depend on the processing

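CYCS, UQCRB, COX6C and COX7C kept their calls under all 27 alternatives, and no called member changed sign. Against 16 members higher and 0 lower, the counts were 8 higher and 3 lower with no filter on low counts (5150 of all genes higher, the median of all genes shifting by 0.115), 4 higher with no batch term, 5 higher and 3 lower in batch 1 alone, and 26 higher in batch 2 alone. Total counts in place of TMM gave 11 members higher, 2 lower and 5 higher in batch 2 over batch 1. DESeq2 called 17 higher and limma-voom 16. Against 4 called interactions, DESeq2 gave 8, and leaving out control 1 and peroxide 5, an alternative chosen after seeing the data, gave 1, with 12 members higher; COX6B1, COX5A, ATP5MG and ATP5MC2 then lost their calls. Leaving out each library in turn gave 3189 to 3438 genes higher and 3221 to 3604 lower, 13 to 21 members higher and 0 to 1 lower (UQCRC1 without peroxide 5, UQCR11 without control 5 or peroxide 8), a members' median of 0.11 to 0.16, 2 to 4 members higher and 27 to 30 lower between batches, and 2 to 8 interactions. Same-numbered libraries had correlations of deviations from -0.177 to 0.228, so the numbers were not taken to pair them; with the number as a block 15 members were higher and 0 lower, COX5B and COX5A losing and COX6A1 gaining a call. The causes were not tested.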
